A study of Mus musculus with 20 samples.

Results

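This account concerns where ISL1 peaks lay against H3K27me3 regions in the cochleovestibular ganglion (CVG) of C57BL/6J mouse embryos at stage E11.5. The members are the peaks of the 4 ISL1 lists, 1 labelled ISL1_26 (Rep1) and 3 labelled ISL1_70 (Rep1, Rep2 and Rep3). They were set against the regions called in both of 2 H3K27me3 lists (Rep2 and Rep3). These 6 libraries are part of a series of 20 CUT&Tag samples from the same tissue, strain and age, of which 14 have a peak list here and 6 IgG samples do not. No treatment or mutation separates the samples. Their labels differ by antibody and replicate number only, with 26 or 70 added for ISL1. The labels say neither what 26 and 70 stand for nor whether replicates came from separate embryos. Spread between libraries may therefore be technical.

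ISL1 is a LIM-homeodomain transcription factor that sensory neurons of the inner ear and of the dorsal root and cranial ganglia express, and that motor neurons use as well. The CVG holds the young neurons that will form the spiral and vestibular ganglia, beside glial precursors of neural crest origin. H3K27me3 is the histone mark written by Polycomb repressive complex 2, and it typically covers developmental regulators that are silent in a cell. H3K27ac marks active enhancers and start sites. In CUT&Tag an antibody tethers a transposase to chromatin, so a peak marks DNA near the antibody's target. In a dissected ganglion a region can carry H3K27me3 in some cells and ISL1 in others.

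The ISL1 lists held 24573 peaks in ISL1_70 Rep2, 95719 in ISL1_26 Rep1, 80293 in ISL1_70 Rep1 and 41668 in ISL1_70 Rep3, on chromosomes 1 to 19, X and Y. Merging the 2 H3K27me3 lists gave 39704 regions, of which 10317 held peaks of both and were kept. They covered 33.1 Mb, or 1.22% of the 2722 Mb spanned by the lists, with a median width of 2.17 kb and a widest region of 88.4 kb. These regions held the summits of 91.5% of the peaks of H3K27me3 Rep2 and of 28.3% of the peaks of Rep3, so nearly all peaks of Rep2 and a minority of those of Rep3 were in regions that were kept. They also held 28.7% of the summits of H3K27me3 Rep1 and 70.9% of those of the list labelled H3K4me3 Rep1, against 8.50% for H3K4me3 Rep2. Whether the labels of H3K27me3 Rep1 and H3K4me3 Rep1 were exchanged was not tested. Neither list was used in the comparisons below, apart from 1 alternative setting that also required a peak of the list labelled H3K27me3 Rep1. An ISL1 peak was placed by its summit as inside a region, at its edge (within 2 kb) or outside. Read depth is unknown. Intervals on shares are 95% Wilson intervals and cover counting error only.

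Start sites and microRNAs in or beside H3K27me3 regions with ISL1 summits give the sequence context. Pou4f1 encodes POU4F1 (BRN3A), a homeodomain factor of sensory neurons. Of the 12 genes that led the ranking described below, 7 had a start site in the RefSeq table of build GRCm38.p6, and Pou4f1 was the only one with ISL1 summits of at least 3 libraries within 1 kb of it. That start site lies outside the H3K27me3 region of Pou4f1, and the summits of 3 libraries within 1 kb of it are edge summits. Its 250 bases before the start site (chr14:104468000-104468249, minus strand, 5′ to 3′) are shown because the nearest summit lay 233 bases from that start site in ISL1_70 Rep2, 432 bases in ISL1_26 Rep1, 232 bases in ISL1_70 Rep1 and 2015 bases in ISL1_70 Rep3. The Nfix sequence (chr8:84772876-84773125, minus strand) is from 1 of 4 Nfix start sites in the table and was chosen after its values were seen. It lies inside an H3K27me3 region, 30 bases from an ISL1_70 Rep2 summit, with the other libraries' nearest summits 1880 to 1977 bases away. Capitals mark TAATG or CTAATG, read on either strand.
Pou4f1: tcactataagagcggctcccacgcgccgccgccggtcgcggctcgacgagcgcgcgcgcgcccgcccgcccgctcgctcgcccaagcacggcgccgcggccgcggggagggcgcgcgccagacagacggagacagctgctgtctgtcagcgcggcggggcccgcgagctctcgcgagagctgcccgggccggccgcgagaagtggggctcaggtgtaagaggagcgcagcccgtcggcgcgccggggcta
Nfix: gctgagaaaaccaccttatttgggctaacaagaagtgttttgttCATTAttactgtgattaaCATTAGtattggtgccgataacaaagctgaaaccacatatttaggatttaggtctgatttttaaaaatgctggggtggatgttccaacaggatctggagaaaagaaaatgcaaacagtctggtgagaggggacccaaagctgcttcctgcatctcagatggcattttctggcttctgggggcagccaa
The Pou4f1 window held neither motif, and 78.0% of its bases were G or C. The Nfix window held both, each read on the other strand as CATTA and CATTAG, the longer containing the shorter motif. Among the 250-base windows of all 21263 start sites of protein-coding genes in the table, 21.0% held TAATG and 5.69% held CTAATG. The shares were 13.5% and 5.52% for the 562 start sites of genes whose H3K27me3 regions held summits of at least 3 ISL1 libraries. They were 14.7% and 4.29% for the 4176 start sites of genes with an H3K27me3 region at a gene end. A match is a run of letters and not a measured site.

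Of 1005 microRNA hairpins in the RefSeq table, 80 overlapped an H3K27me3 region, and 16 of these lay in regions with summits of at least 3 ISL1 libraries. Of all 10317 regions 6.00% held summits of at least 3, and wide regions did so more often. The 16 are not separate places. Mir9-1, Mir3093 and Gm25641 share a region of 28.6 kb, and Mir129-2 and Mir129b share another. Mir6546 lies in a region of transfer RNA genes, where the place of a read is uncertain. The mature forms of 3 examples, of the neural miR-9 and miR-129 and of a Hox cluster microRNA, were chosen after their values were seen and are given with the seed (bases 2 to 8) in capitals.
miR-9-5p: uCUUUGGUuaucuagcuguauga
miR-129-5p: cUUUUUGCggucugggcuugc
miR-196b-5p: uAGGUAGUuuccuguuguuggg
Each of the 3 has its own seed. miR-9 is a neural microRNA whose identical mature form comes from Mir9-1 and Mir9-3, both in regions with at least 3 libraries. The hairpin Mir9-2 lies in a region of 3.04 kb with summits of 2 libraries only, ISL1_70 Rep1 and ISL1_70 Rep2. At Mir9-3 (chromosome 7, region of 20.4 kb) the nearest summits lay 7.4 kb away in ISL1_70 Rep2, 6.05 kb in ISL1_26 Rep1, 0.083 kb in ISL1_70 Rep1 and 1.75 kb in ISL1_70 Rep3. At Mir129-2 (chromosome 2, region of 9.72 kb) summits of ISL1_70 Rep2 and ISL1_26 Rep1 lay 0.046 and 0.025 kb from the middle of the hairpin. That of ISL1_70 Rep1 lay 2.70 kb away, and ISL1_70 Rep3 had none in the region. Mir375, a microRNA of endocrine and sensory cells, lies in a region of 31.7 kb with 1 summit of ISL1_70 Rep2, 1 of ISL1_26 Rep1, 2 of ISL1_70 Rep1 and 1 of ISL1_70 Rep3. Mir196b sits in the Hoxa cluster, in a region of 56.6 kb. Its nearest summits lay 3.48 kb away in ISL1_70 Rep2, 10.4 kb in ISL1_26 Rep1, 16.6 kb in ISL1_70 Rep1 and 15.6 kb in ISL1_70 Rep3.

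Most ISL1 peaks lay outside H3K27me3 regions, and the 4 libraries fell into 3 that were alike and 1 that stood apart. The share of summits inside a region was 7.83% in ISL1_70 Rep2 (1923 of 24573 peaks, interval 7.50 to 8.17%). It was 3.32% in ISL1_26 Rep1, 3.34% in ISL1_70 Rep1 and 3.11% in ISL1_70 Rep3. Since the regions covered 1.22% of the genome, these shares were 6.44, 2.74, 2.74 and 2.56 times the covered share, in the same order. The mean over the 4 libraries was 4.40% ± 2.29 (SD, n = 4), and without ISL1_70 Rep2 it was 3.26% ± 0.127 (SD, n = 3). ISL1_70 Rep2 thus lay above the others by far more than these varied among themselves, and its interval did not touch theirs.

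At the edges the libraries were closer to each other. The share within 2 kb of a region was 2.18% in ISL1_70 Rep2, 1.89% in ISL1_26 Rep1, 1.88% in ISL1_70 Rep1 and 1.85% in ISL1_70 Rep3, with the edges themselves covering 1.17% of the genome. For each summit inside a region ISL1_70 Rep2 had 0.279 summits at an edge, and the other 3 libraries had 0.563 to 0.595. Inside regions of at least 5 kb, summits of ISL1_70 Rep2 lay deeper. The outer 20% of the way from border to centre held 10.5% of them, against 17.9% in ISL1_26 Rep1, 17.7% in ISL1_70 Rep1 and 16.6% in ISL1_70 Rep3, where an even spread would give 20%. At the centre the libraries differed less. The central 20% held 26.3% in ISL1_70 Rep2, 21.2% in ISL1_26 Rep1, 24.5% in ISL1_70 Rep1 and 23.3% in ISL1_70 Rep3. Regions with transfer or ribosomal RNA genes were not left out of these shares.

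The share inside did not separate ISL1 as a group from the other antibodies. POU4F1 libraries had 3.35% and 2.10% of summits inside, and H3K27ac libraries 8.63%, 3.21% and 2.69%. ISL1 exceeded POU4F1 by 1.67 percentage points (means 4.40% ± 2.29, n = 4, and 2.73% ± 0.885, n = 2, SD), which did not pass the exact two-sided permutation test (p = 0.533, and 0.133 is the smallest p that 4 against 2 libraries allow). Without ISL1_70 Rep2 that difference was 0.528 percentage points. ISL1 minus H3K27ac was -0.447 percentage points (4.40% ± 2.29, n = 4, and 4.85% ± 3.29, n = 3, SD), which did not pass that test either (exact two-sided permutation test, p = 0.8, smallest possible 0.0571). The difference from H3K27ac was -1.59 without ISL1_70 Rep2, and it takes the opposite sign without H3K27ac Rep1, the shortest of those lists with 8855 peaks, at 1.44 percentage points.

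**Figure D1:**
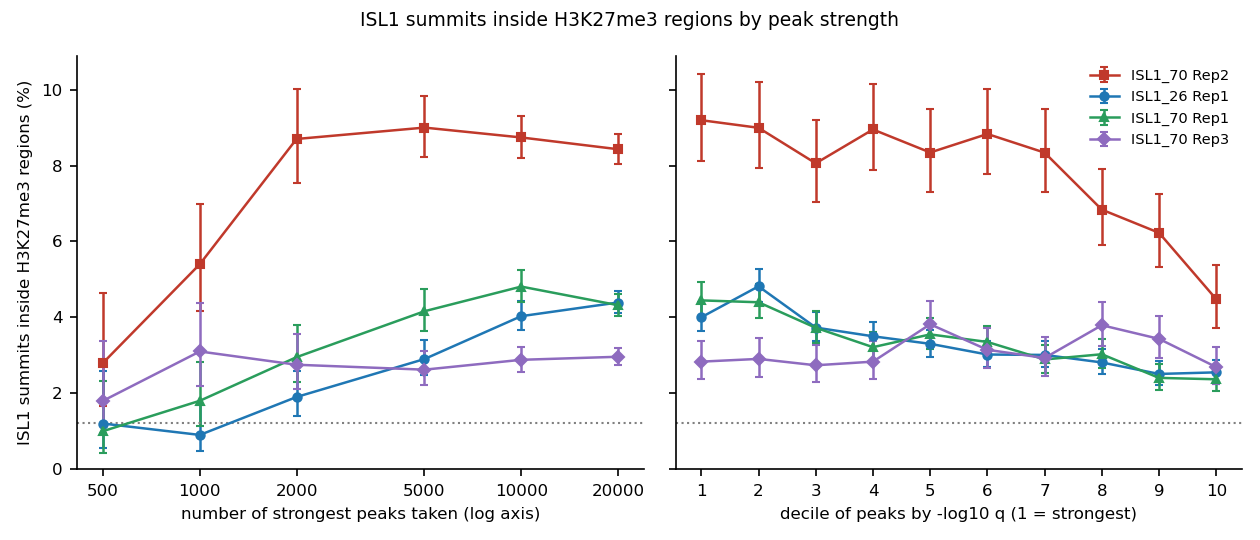
Share of ISL1 summits inside H3K27me3 regions (percent) among the strongest 500 to 20000 peaks of each library (left, log axis) and by decile of −log10 q (right, 1 = strongest). Bars are 95% Wilson intervals and the dotted line is the 1.22% of the genome that the regions cover. ISL1_70 Rep2 lies above the other 3 libraries in every decile.

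Few of the very strongest ISL1 peaks lay inside H3K27me3. Among the 500 strongest peaks, 2.80% lay inside in ISL1_70 Rep2, 1.2% in ISL1_26 Rep1, 1.0% in ISL1_70 Rep1 and 1.80% in ISL1_70 Rep3, that is 14, 6, 5 and 9 peaks. The intervals of 3 libraries include the 1.22% that the regions cover, and that of ISL1_70 Rep2 does not (1.68 to 4.64%). H3K27ac regions called in at least 2 lists overlapped 80.4% of the 500 strongest peaks in ISL1_70 Rep2, 82.6% in ISL1_26 Rep1, 81.8% in ISL1_70 Rep1 and 67.0% in ISL1_70 Rep3. With 2000 peaks the share inside was 8.70% in ISL1_70 Rep2, 1.90% in ISL1_26 Rep1, 2.95% in ISL1_70 Rep1 and 2.75% in ISL1_70 Rep3. With 20000 peaks it was 8.43%, 4.39%, 4.32% and 2.96%, in the same order.

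By decile of the whole list the shares changed more slowly, and differently in each library. In ISL1_70 Rep2 the strongest decile had 9.19% inside (interval 8.11 to 10.4%) and the weakest 4.48% (3.73 to 5.37%). The first 7 deciles lay between 8.06% and 9.19%, and the last 3 at 6.84%, 6.23% and 4.48%. ISL1_26 Rep1 had 4.0% in the strongest and 2.55% in the weakest decile, with its highest share, 4.82%, in the second. ISL1_70 Rep1 had 4.45% and 2.37%. ISL1_70 Rep3 had 2.83% and 2.69%, with its highest share, 3.82%, in decile 5, so no trend with strength was seen there. The mean difference, strongest minus weakest, was 2.10 percentage points ± 1.92 (SD, n = 4) and was above 0 in 4 of 4 libraries. The exact two-sided sign-flip test gave p = 0.125, which is the smallest that 4 libraries allow. Without ISL1_70 Rep2 the mean difference was 1.22 percentage points. With every list limited to its 20000 strongest peaks the same difference was -0.55 percentage points (p = 0.625, exact). The strongest and the weakest decile then had 8.70% and 6.4% inside in ISL1_70 Rep2, 1.90% and 3.85% in ISL1_26 Rep1, 2.95% and 3.8% in ISL1_70 Rep1, and 2.75% and 4.45% in ISL1_70 Rep3. ISL1_70 Rep2 alone kept the higher share in its strongest decile.

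**Figure D2:**
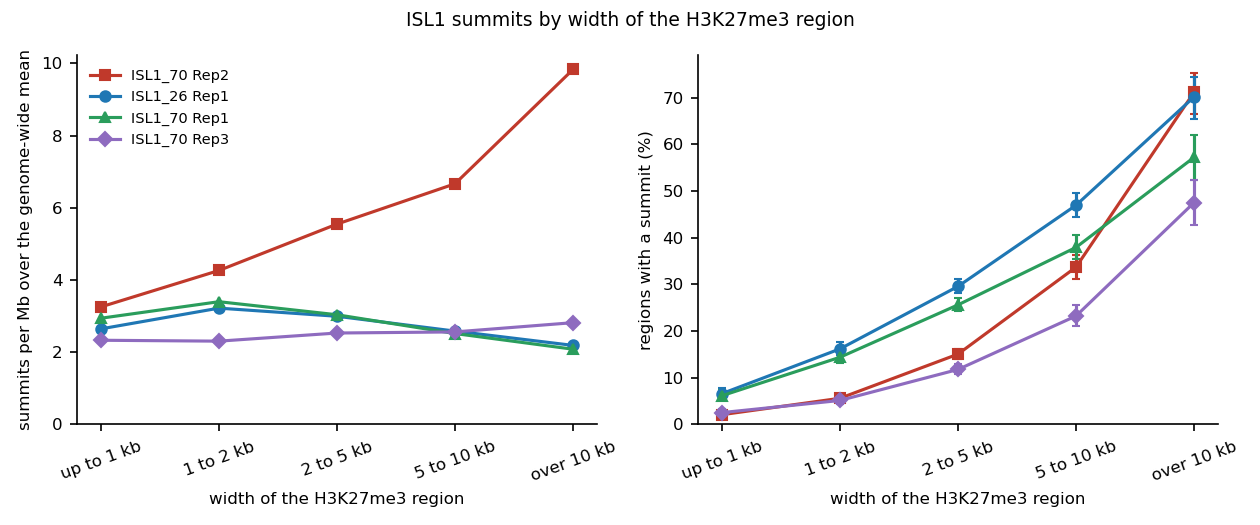
ISL1 summits per Mb of H3K27me3 region divided by the library's genome-wide mean (left) and percent of regions with at least 1 summit (right, bars are 95% Wilson intervals), by region width. The density ratio climbs to 9.83 in regions over 10 kb in ISL1_70 Rep2 and stays between 2.08 and 3.4 in the other 3 libraries.

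ISL1_70 Rep2 also differed from the other ISL1 libraries by the width of the regions it reached. Its summit density over its genome-wide mean was 3.25 in regions of up to 1 kb, 4.26 at 1 to 2 kb, 5.55 at 2 to 5 kb, 6.67 at 5 to 10 kb and 9.83 over 10 kb. In ISL1_26 Rep1 the values were 2.65, 3.22, 3.0, 2.58 and 2.19, in ISL1_70 Rep1 2.94, 3.4, 3.04, 2.52 and 2.08, and in ISL1_70 Rep3 2.33, 2.31, 2.53, 2.56 and 2.82. Summits per Mb in the 402 regions over 10 kb, divided by those in the 4806 regions of up to 2 kb, came to 2.46 in ISL1_70 Rep2, 0.713 in ISL1_26 Rep1, 0.635 in ISL1_70 Rep1 and 1.22 in ISL1_70 Rep3. In spite of its short list, ISL1_70 Rep2 had a summit in 71.1% of the regions over 10 kb, against 70.1% for ISL1_26 Rep1 with 95719 peaks. The POU4F1 libraries had a density ratio of 2.49 and 1.57 over the genome in regions over 10 kb.

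Some wide regions are multi-copy RNA genes, where the place of a read is uncertain. The widest region (chr8:123536479-123624877) holds 49 annotated 5S ribosomal RNA genes or copies and 43 summits of ISL1_70 Rep2, against 2 of ISL1_26 Rep1, 4 of ISL1_70 Rep1 and 9 of ISL1_70 Rep3. A region of 35.4 kb on chromosome 6 with a 4.5S RNA gene held 16, 9, 3 and 3 summits in the same order, and a region of 23.3 kb on chromosome 1 with 15 transfer RNA genes held 5, 4, 2 and 5. In all, 35 regions overlapped a transfer or ribosomal RNA gene and held 3.90% of the inside summits of ISL1_70 Rep2, 0.817% of ISL1_26 Rep1, 0.709% of ISL1_70 Rep1 and 2.16% of ISL1_70 Rep3. Without them the share inside was 7.52%, 3.30%, 3.31% and 3.04%, and the ratio of wide to narrow regions was 2.23, 0.707, 0.637 and 1.17.

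**Figure D3:**
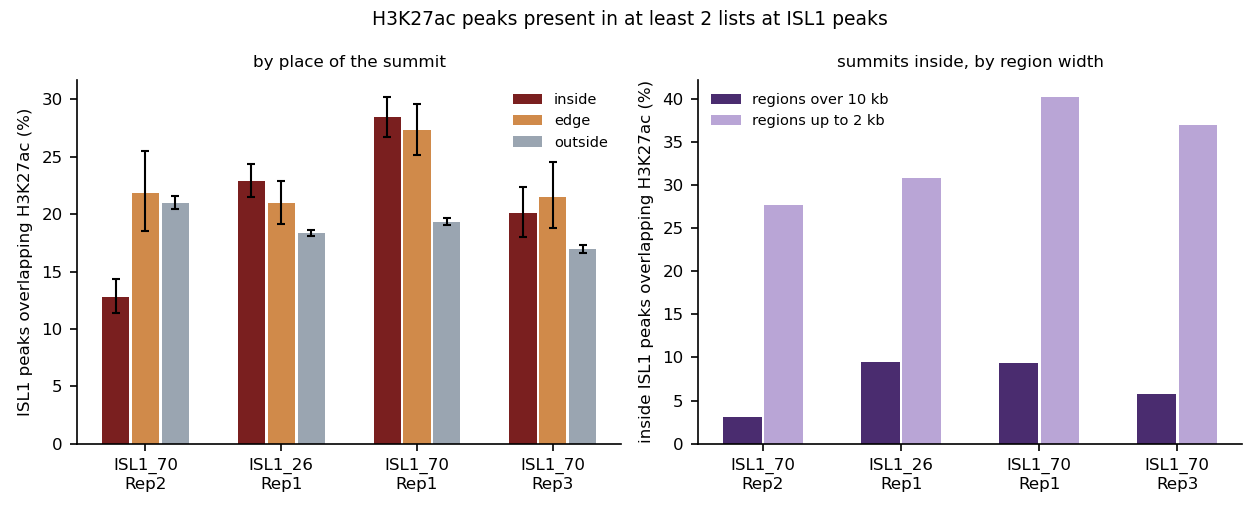
Percent of ISL1 peaks that overlap H3K27ac regions called in at least 2 lists, by place of the summit (left, bars are 95% Wilson intervals) and, for summits inside, by width of the H3K27me3 region (right). In ISL1_70 Rep2 inside peaks overlap H3K27ac less often than outside peaks, 12.8% and 21.0%, and in the other 3 libraries more often.

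Active marks beside the inside peaks gave a further contrast. H3K27ac overlapped 12.8% of inside and 21.0% of outside peaks in ISL1_70 Rep2, a difference of -8.21 percentage points. The difference was positive in the other 3 libraries, with 22.9% and 18.4% in ISL1_26 Rep1, 28.4% and 19.3% in ISL1_70 Rep1, and 20.1% and 17.0% in ISL1_70 Rep3. Within each library the intervals of inside and outside peaks did not overlap, but among the 4 libraries ISL1_70 Rep2 did not stand past Dixon's critical value (gap 0.653 of the range). Among the peaks of deciles 1 to 5 ISL1_70 Rep2 had 14.0% inside and 28.5% outside, and among those of deciles 6 to 10 it had 11.3% and 13.6%, so most of its difference lay in the stronger peaks. ISL1_26 Rep1 had 27% inside and 26% outside in deciles 1 to 5. Limiting each list to 20000 peaks left ISL1_70 Rep2 at -9.93, turned ISL1_26 Rep1 to -6.37 (34.3% inside and 40.7% outside), and gave 1.82 in ISL1_70 Rep1 and 1.48 in ISL1_70 Rep3.

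Region width went with H3K27ac in all 4 libraries. Of inside peaks in regions over 10 kb, 3.15% overlapped H3K27ac in ISL1_70 Rep2, 9.48% in ISL1_26 Rep1, 9.34% in ISL1_70 Rep1 and 5.76% in ISL1_70 Rep3. In regions of up to 2 kb the shares were 27.6%, 30.8%, 40.2% and 36.9%, in the same order. Seen from the regions, those of 2 to 5 kb with H3K27ac held an ISL1_70 Rep1 summit in 42.8% of 873 cases, and those without in 20.3% of 2841. For ISL1_70 Rep2 the shares were 18.4% and 14.0%. Over 5 kb the 4 libraries no longer moved alike. ISL1_70 Rep2 had a summit in 37.4% of 401 regions with H3K27ac and in 43.4% of 1396 without (intervals overlap), ISL1_26 Rep1 in 65.6% and 48.3%, ISL1_70 Rep1 in 60.8% and 36.9%, and ISL1_70 Rep3 in 32.2% and 27.7% (intervals overlap).

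Inside peaks lay near gene ends far more often than outside peaks in each library. The share within 1 kb of an annotated end of a protein-coding gene was 27.8% inside and 5.63% outside in ISL1_70 Rep2, 30.1% and 5.51% in ISL1_26 Rep1, 33.1% and 6.66% in ISL1_70 Rep1, and 26.9% and 4.96% in ISL1_70 Rep3. H3K4me3 Rep2, a mark of start sites, overlapped 11.8% of inside and 3.91% of outside peaks in ISL1_70 Rep2, and 14.9 to 19.9% and 3.12 to 5.35% in the others. The H3K27me3 regions themselves lay within 1 kb of an annotated end of 4290 of 21887 protein-coding genes. The share of region bases near gene ends was not counted, so neither contrast is separate from where the regions lie.

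The number of libraries with a summit in a region grew with its width. Of the 10317 regions, 5493 held no ISL1 summit, 2905 held summits of 1 library, 1300 of 2, 468 of 3 and 151 of 4, and their median widths were 1.46, 2.74, 4.26, 6.42 and 9.24 kb. In all 619 regions, 6.00%, held summits of at least 3 libraries. With 1 ISL1 library left out, summits of all 3 others were in 206 regions (without ISL1_26 Rep1) to 331 (without ISL1_70 Rep3), and with 20000 peaks per list 121 regions had at least 3. Of regions of up to 1 kb 7 of 2018 did, and of the 402 over 10 kb 136 held 3 libraries and 68 held 4. A wide region has more room for unrelated summits of several libraries, so exact positions were compared as well. A position counted as inside when at least 1 of its summits, of any library, lay in a region, so summits of its other libraries may lie outside. Overlapping peaks of at least 3 libraries were found at 255 positions inside regions, 201 with 3 libraries and 54 with 4. That count was 63 without ISL1_26 Rep1 to 138 without ISL1_70 Rep2, and 67 with 20000 peaks per list. Of all merged ISL1 positions inside regions, 13.0% had peaks of 2 libraries, 2.63% of 3 and 0.706% of 4, and of positions not inside 6.90%, 1.66% and 0.723%. A position with several summits meets the rule for inside more easily, and the part of this in these shares was not tested.

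Positions shared by at least 3 libraries were often marked as active whether or not H3K27me3 was called there. H3K27ac of at least 2 lists overlapped 51.4% of the 255 inside positions (interval 45.3 to 57.4%) and 70.5% of the 4913 not inside (69.3 to 71.8%). H3K4me3 Rep2 overlapped 36.5% of those inside and 13.0% of those not inside, and 45.1% and 12.2% lay within 1 kb of a gene end. These contrasts, too, are not separate from where the H3K27me3 regions lie. POU4F1 Rep1 overlapped 18% and 25.8%, while POU4F1 Rep2 overlapped 12.5% and 4.36%, so the 2 POU4F1 lists point opposite ways. Of the 54 inside positions with all 4 libraries, 30 overlapped H3K27ac of at least 2 lists, 13 POU4F1 Rep1 and 8 POU4F1 Rep2. These positions are broader than those with 1 library (median 1687 and 482 bp), and the part of this breadth in the overlaps was not tested.

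The leading position by mean rank lay where Igfbpl1 and Stra6l overlap (chr4:45823453-45825893). Its best peak was in the strongest 1.67% of ISL1_70 Rep2, 0.433% of ISL1_26 Rep1, 1.71% of ISL1_70 Rep1 and 0.847% of ISL1_70 Rep3, and it overlapped H3K27ac and POU4F1 Rep1. Its inside summits lay close to the region's border, which is at -2.38 kb from the region's centre. They were at -2.37 kb in ISL1_70 Rep2 and at -2.07 kb in ISL1_26 Rep1, ISL1_70 Rep1 and ISL1_70 Rep3. The H3K27ac region there ran across that border, from -8.39 to 0.39 kb. The second lay on chromosome 8, 124 kb from the nearest gene end, that of the forkhead gene Foxf1, a mesenchymal regulator. The third overlapped an 18S ribosomal RNA copy on chromosome 17, where read placement is uncertain. A pair of further positions lay in the region upstream of Pou4f1.

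**Figure D4:**
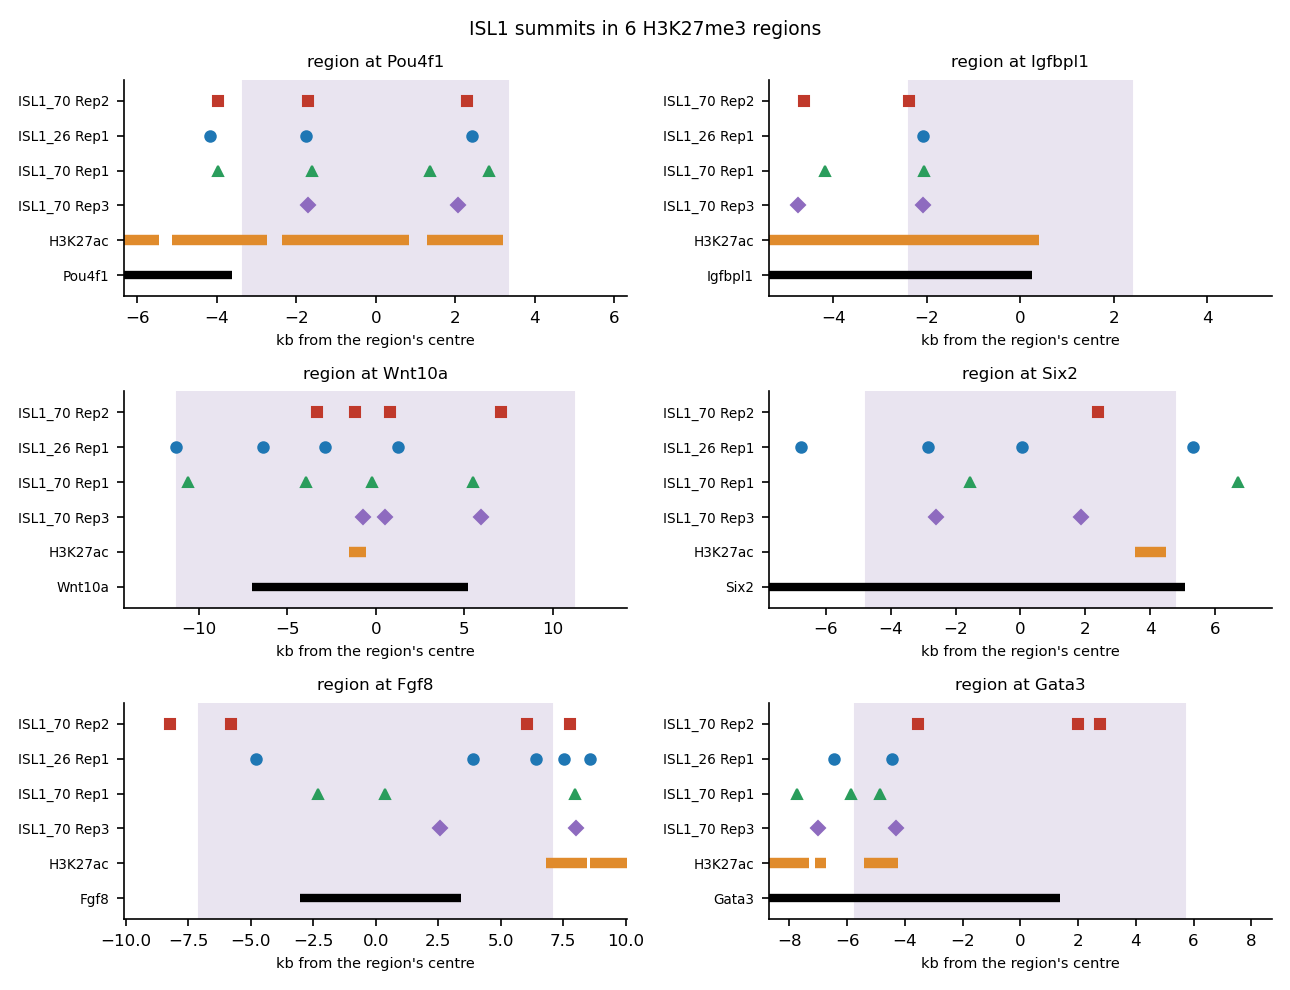
Summits of the 4 ISL1 libraries, H3K27ac regions of at least 2 lists (orange) and the gene (black) at 6 H3K27me3 regions (shaded), by distance from the region's centre in kb. In the Pou4f1 region, summits of all 4 libraries gather at 2 places, while at Wnt10a they are spread over most of the region.

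At the level of genes, 4290 of 21887 protein-coding genes, 19.6%, had an H3K27me3 region within 1 kb of an annotated end. For 596 of them the regions held summits of at least 3 ISL1 libraries, which is 2.72% of all genes and 13.9% of those with a region, and for 168 of all 4. The 596 became 220 without ISL1_26 Rep1 to 333 without ISL1_70 Rep3, and 122 with 20000 peaks per list. Genes were ordered by the number of libraries and then by the mean rank of their best inside peak. The genes at the head included Igfbpl1 and Stra6l (1 shared region), Wnt10a, Nfix, Six2, Foxc1, Pou4f1, Shmt2, Fgf8, Fmnl1 and Cd248.

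Pou4f1 had a region of 6.66 kb (chr14:104468396-104475052) that begins 0.28 kb beyond the gene's annotated end. It held 2 summits of ISL1_70 Rep2, 2 of ISL1_26 Rep1, 3 of ISL1_70 Rep1 and 2 of ISL1_70 Rep3. The best peaks there ranked in the strongest 0.456%, 0.38%, 0.148% and 50.2% of the lists, in the same order. So 3 libraries had one of their strongest peaks in this region and ISL1_70 Rep3 did not. In the map of that region, 1 summit of each library lay on the gene's side of the region's centre, at -1.76 to -1.61 kb from it. A second place, 2.06 to 2.86 kb on the other side, also had all 4 libraries. The summits nearest to the start site, of ISL1_70 Rep2, ISL1_26 Rep1 and ISL1_70 Rep1, lay beyond the region's border at -3.96, -4.16 and -3.96 kb and count as edge summits. H3K27ac of at least 2 lists covered both places.

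Other leading genes are signalling and patterning genes. Wnt10a, a Wnt ligand, lies in a region of 22.4 kb with 4 summits of ISL1_70 Rep2, 3 of ISL1_26 Rep1, 4 of ISL1_70 Rep1 and 3 of ISL1_70 Rep3. Fgf8, a ligand that patterns the otic region and midbrain, had 2, 3, 2 and 1 summits in a region of 14.1 kb, the best ranking in the strongest 35.3%, 1.42%, 18.9% and 1.18%. Six2 and Foxc1, regulators of kidney and head mesenchyme, had 2, 4, 4 and 2, and 2, 4, 2 and 1 summits. Nfix, a nuclear factor I gene of neural progenitors, had a region of 49.97 kb with 4, 2, 3 and 3 summits.

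**Figure D5:**
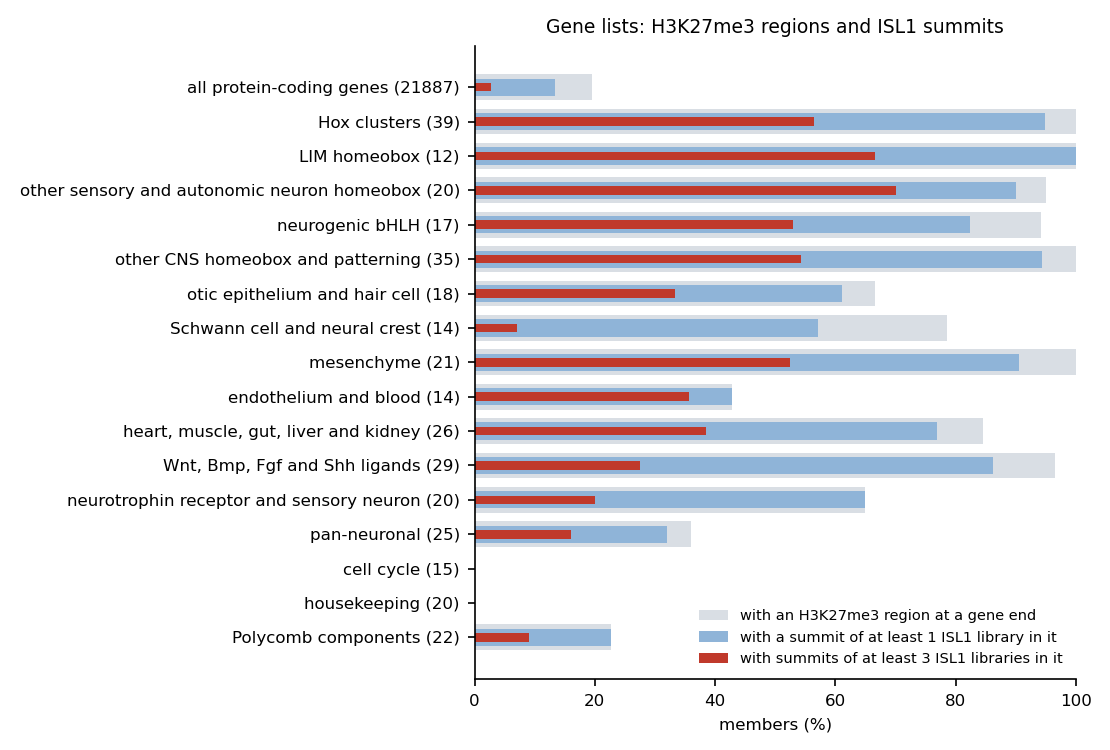
Percent of the members of each gene list (number of members in brackets) with an H3K27me3 region at a gene end (grey), with a summit of at least 1 ISL1 library in it (blue) and of at least 3 (red). The 4 homeobox lists and the neurogenic bHLH list have at least 52.9% in red. The mesenchyme list is nearly level with them at 52.4%, and the cell cycle and housekeeping lists have no member with a region.

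Gene lists differed widely in how many members had an H3K27me3 region holding summits of at least 3 ISL1 libraries, against 2.72% of all genes. The count was 22 of 39 for the Hox genes, 8 of 12 for the LIM homeobox genes and 14 of 20 for other homeobox and related regulators of sensory and autonomic neurons. It was 9 of 17 for neurogenic bHLH factors and 19 of 35 for other homeobox and patterning genes of the central nervous system. Nearly all members of these lists had an H3K27me3 region at all (39, 12, 19, 16 and 35), and their regions were wide, with a median widest region of 35.4, 14.3, 12.4, 7.67 and 12.5 kb against 3.77 kb over all genes with one. The share of listed genes with 3 libraries is thus not separate from region width. Nor are the Hox genes separate counts, since neighbours share regions. A region of 56.6 kb was shared by Hoxa3, Hoxa4, Hoxa5, Hoxa6, Hoxa7, Hoxa9 and Hoxa10. Another of 48.7 kb was shared by Hoxb3, Hoxb5, Hoxb6, Hoxb7, Hoxb8 and Hoxb9, and another of 35.4 kb by Hoxc4, Hoxc5, Hoxc6 and Hoxc8. No member of the cell cycle list (15 genes) or the housekeeping list (20 genes) had a region.

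Among LIM homeobox genes the 8 were Isl2, Lhx1, Lhx2, Lhx3, Lhx4, Lhx5, Lhx6 and Lmx1b. Lhx2, a regulator of forebrain and eye, had 3 summits of ISL1_70 Rep2 and 1 of each other library, ranking in the strongest 19.2% of ISL1_70 Rep2, 88.5% of ISL1_26 Rep1, 62.1% of ISL1_70 Rep1 and 34.4% of ISL1_70 Rep3, so in 2 libraries they ranked in the weaker part of the list. Isl1 itself had only a region of 1.74 kb, and 1 weak summit of ISL1_70 Rep1 in it (strongest 96.6%). The sensory and autonomic list included Pou4f1, Pou4f3, Phox2a, Tlx1, Tlx3, the Hmx genes and Gata3. Tlx1, a homeobox gene of sensory and relay neurons, had 3, 4, 2 and 2 summits in a region of 32.9 kb, with the best peak in the strongest 39.2%, 7.22%, 18.4% and 0.29% of ISL1_70 Rep2, ISL1_26 Rep1, ISL1_70 Rep1 and ISL1_70 Rep3. Gata3, a zinc finger factor needed for auditory neurons, had 3, 1, 1 and 1.

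Genes of other cell types and tissues, and signalling ligands, were also among the genes with 3 libraries. The mesenchyme list had 11 of 21, among them Foxc1 and Msx1 (2, 3, 4 and 1 summits). The endothelium and blood list had 5 of 14, including Sox17 and Fli1, and the list of heart, muscle, gut, liver and kidney genes had 10 of 26, including Cdx2. The Schwann cell and neural crest list had 1 of 14, Tfap2a, although 11 of its members had a region. The otic list had 6 of 18, with Tbx3, Tbx1, Tbx2, Gfi1, Otx1 and Fgf3. The Wnt, Bmp, Fgf and Shh ligands had 8 of 29, among them Shh (2, 2, 1 and 1) and Wnt1 (2, 2, 5 and 2). The part of other cell types in the H3K27me3 regions was not tested.

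The neurotrophin receptor and sensory neuron list had 4 of 20, or 30.8% of its 13 members with a region, against 13.9% over all genes with one. Among them were Ntrk3, Ret and Piezo2. Ntrk3, the receptor of neurotrophin 3, had a region of 5.61 kb, and 2.01 kb from the gene's annotated end all 4 libraries had overlapping peaks in it that also met H3K27ac and H3K4me3 Rep2. They ranked in the strongest 52.4% of ISL1_70 Rep2, 16% of ISL1_26 Rep1, 21.9% of ISL1_70 Rep1 and 75.1% of ISL1_70 Rep3. The pan-neuronal list had 4 of 25, or 44.4% of its 9 members with a region, and these were Nefh (a neurofilament subunit), Celf5, Rbfox3 and Ina. Such shares did not set the neuronal lists apart, since other lists lay above and below them. Of members with a region, the share was 83.3% in the endothelium and blood list and 52.4% in the mesenchyme list. It was 45.5% in the list of heart, muscle, gut, liver and kidney genes, and the otic list also lay above 44.4%. The share was 28.6% for the Wnt, Bmp, Fgf and Shh ligands and 9.09% for the Schwann cell and neural crest list. Of 22 Polycomb components 2 reached 3 libraries.

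ISL1_70 Rep2 alone had summits in 499 regions, with a median width of 3.54 kb, whereas ISL1_26 Rep1 alone had summits in 1152 (2.70 kb), ISL1_70 Rep1 in 908 (2.51 kb) and ISL1_70 Rep3 in 346 (2.60 kb). The leading genes with summits of ISL1_70 Rep2 and of no other ISL1 library were Tmem255b and Gas6 (1 shared region), Baiap3, Ltbp2 and Rhcg, each with 2 summits, in regions of 4.17 to 8.41 kb at their widest. Their best peaks ranked in the strongest 3.70 to 9.27% of the list. In the Hoxa cluster (region of 56.6 kb) ISL1_70 Rep2 had 7 summits, against 1 in ISL1_26 Rep1, 1 in ISL1_70 Rep1 and 4 in ISL1_70 Rep3, and at Hand2 (37.9 kb) it had 7 against 1, 1 and 0. Of the 39 Hox genes, 33 had an ISL1_70 Rep2 summit in their regions, against 27 for ISL1_26 Rep1, 24 for ISL1_70 Rep1 and 23 for ISL1_70 Rep3. Hox genes that share a region were each counted here. Over all genes the counts were 1143 for ISL1_70 Rep2 and 1719, 1509 and 831 for the others.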

How the data were processed

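CUT&Tag peak lists of 14 samples from E11.5 CVGs were used, grouped by antibody and replicate from the labels. Per the file headers (the peak names), the authors called peaks with MACS2 against a control, separately for each library. FastQC, Bowtie2, SEACR and build mm10 stand in the submitters' processing notes, without versions or thresholds. The deposited lists give each peak's fold enrichment (a ratio to the control), its −log10 p and −log10 q, and its summit. They end at a −log10 q of about 1. A list holds no read counts, so depth is unknown, and the length of a list moves its weakest decile. The 6 IgG samples were not analysed here.

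Only chromosomes 1 to 19, X and Y were kept, and peaks were ranked by −log10 q. H3K27me3 regions are merged peaks of Rep2 and Rep3 (1 bp of overlap) with both lists in them. Genes are the 21887 protein-coding genes of RefSeq GRCm38.p6, the same assembly as mm10; either annotated end was used, since the gene table gives no strand. Named genes were the 12 with most ISL1 libraries in their regions, ties by mean rank of the best inside peak, up to 2 more from each of 16 lists, up to 5 with ISL1_70 Rep2 only, the genes at the 5 widest regions, and Isl1 and Pou4f1. Of 341 list entries 340 matched a gene. Some genes that this rule names are not reported here. Members, lists and rules were chosen with earlier results of these data known. H3K27ac regions are those called in at least 2 of 3 lists. The H3K27ac and width contrasts, the strongest-peak shares, the active-mark and shared-position comparisons and the RNA gene and microRNA searches were added after seeing the data. Tests are exact permutation or sign-flip tests over libraries. Placement and merging were checked on 20 simulated sets against a base-by-base count, with 0 mismatches. The tests were checked on a small example each, against its known p-value. Python 3.11.15, pandas 2.3.3, numpy 2.4.6 and scipy 1.17.1 were used.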

Additional observations from a re-analysis of the deposited data

Results flagged for a closer look

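With 4 ISL1 libraries, the highest or lowest was marked when its gap to the nearest other exceeded Dixon's 95% critical share of the whole range; chance marks about 1 in 20 groups. ISL1_70 Rep2 was named for comparison with earlier results of these data known, and the 6 measures overlap. The rate of 1 in 20 therefore does not hold for it. ISL1_70 Rep2 was marked in 3 of 6 measures. Its share of summits inside H3K27me3 regions was 7.83% (gap 0.952 of the range), its share at the edge was 2.18% (0.887), and its share inside in the weakest decile was 4.48% (0.847). Its share in the strongest decile, its H3K27ac contrast and its ratio of wide to narrow regions were not marked (0.746, 0.653 and 0.680). Without the widest region, with its 5S ribosomal RNA genes, the share in the weakest decile was 3.66% and its gap 0.781 of the range, which is not marked.

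A pair of lists outside the comparisons held many summits in the H3K27me3 regions. The list labelled H3K4me3 Rep1 had 70.9% of its summits there, against 8.50% for H3K4me3 Rep2. The list labelled H3K27me3 Rep1 had 28.7%, below the list labelled H3K4me3 Rep1. Whether the 2 labels were exchanged was not tested.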

How the results depend on the processing

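The 9 planned results and 4 added ones were recomputed under up to 29 settings; 191 of 231 recomputed values stayed within set limits, 36 moved past them and 4 took the opposite sign. The limits are the same direction and side of the test threshold for a tested difference, whatever its size, the spread between libraries (for values of ISL1_70 Rep2, its counting interval) for another value and 1.5 times for a count. The mean share inside moved by less than the spread between libraries under every setting tried. That limit is wide, with an SD of 2.29 on a mean of 4.40%, and 0.127 without ISL1_70 Rep2. The share was 2.77% where a peak of the list labelled H3K27me3 Rep1 was also required. It was 3.26% without ISL1_70 Rep2 and 5.29% without H3K27me3 Rep2. The cause of the other changes was not tested. With the 20000 strongest peaks of each ISL1 library, the difference of strongest minus weakest decile was -0.55, the difference of ISL1 minus H3K27ac was 0.179, the mean H3K27ac contrast of the 3 other ISL1 libraries was -1.02 and that of ISL1_70 Rep2 -9.93. The mean edge share was then 2.11%, and there were 121 regions, 67 positions and 122 genes with at least 3 libraries in place of 619, 255 and 596. The edge share was 1.77% by peak overlap, 2.46% on bases covered by both lists, 1.68% with regions joined, 1.10% with an edge of 1 kb and 4.11% with 5 kb. Where a peak of the list labelled H3K27me3 Rep1 was also required, the edge share was 0.831%, the excess of ISL1_70 Rep2 in the strongest decile 4.10 in place of 5.43, its H3K27ac contrast -9.88, its ratio of wide to narrow regions 1.64 and that of the others 0.497, with 169 positions. That ratio in ISL1_70 Rep2 was 1.92 by peak overlap and 1.64 with regions joined. On bases covered by both lists its H3K27ac contrast was -9.87 and the gene count 396. Annotated start sites in place of either gene end, an alternative chosen after seeing the data, gave 365 genes.

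Leaving out 1 library at a time gave 206 to 549 regions, 63 to 284 positions and 220 to 520 genes; without an ISL1 library, 3 of 3 are needed. Without ISL1_26 Rep1, ISL1_70 Rep1, ISL1_70 Rep2 or ISL1_70 Rep3, 206, 239, 296 and 331 regions remained. The edge share ranged from 1.87 to 5.69%, the highest without H3K27me3 Rep2. The excess of ISL1 over H3K27ac ranged from -1.59 to 1.44, the ratio of wide to narrow regions in ISL1_70 Rep2 from 2.34 to 3.79 and in the others from 0.674 to 1.08. Leaving out regions with transfer or ribosomal RNA genes, or the 5S region, moved none of the 13 past the limits stated first; the ratio in ISL1_70 Rep2 was then 2.23 and 2.30. No called interval held more than 1 summit, so keeping 1 per interval changed nothing. With ISL1_70 and H3K27ac libraries of the same number as pairs (a replicate block), the difference was -0.0883 percentage points (exact sign-flip test, p = 1.0, the smallest possible being 0.25). The labels do not say that numbers pair samples, and 1 of 3 ISL1_70 libraries overlapped most with the H3K27ac library of its number.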
